A study of Mus musculus with 3 samples.

Results

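Circadian clock genes encode the transcription factors and repressors that keep daily time in nearly every cell of the body. The data comprised 10 of them, Per1, Per2, Per3, Nr1d1, Nr1d2, Dbp, Tef, Ciart, Arntl and Npas2, taken by symbol from the 55357 genes of single-cell count matrices from mouse liver, of which 28660 held at least 1 UMI (unique molecular identifier, 1 captured transcript) in the cells kept. All 10 members had UMIs. All mice were wild-type C57BL/6J males, 8 weeks old at the outset, and the cells of 2 mice were pooled into each of the 3 libraries. Control mice (CON) were left untreated. HFD mice ate a high-fat diet (60% of kcal as fat) over 4 months, as a model of metabolic dysfunction-associated steatohepatitis. CCl4 mice ate chow for 3 months and were then injected into the peritoneum with 0.1 mL of 10% carbon tetrachloride, 2 times a week for 4 weeks, as a model of fibrosis. Hepatocytes and non-parenchymal cells were separated after collagenase perfusion and mixed in equal number before capture. The age of the control mice at collection and the hour at which each liver was taken are not given in the sources used here. With 1 library per condition there was no replicate check and no test between conditions. All intervals below are 95% intervals for counting error alone, and they do not cover differences between mice, between days or between preparations.

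In the core loop, the partners BMAL1 (the product of Arntl) and CLOCK, or its paralog NPAS2, bind E-box DNA and switch on the genes of their own repressors. PER1, PER2 and PER3 act with the cryptochromes to shut that activity off, CIART (also called CHRONO) is a further repressor of it, and the nuclear receptors REV-ERB alpha and beta (Nr1d1 and Nr1d2) repress Arntl and Npas2 through RRE elements. DBP and TEF are PAR bZIP factors that act on D-box elements and carry the rhythm to output genes. Among genes that liver cells cycle over the day, these are among the most strongly cycling. The Per, Nr1d, Dbp, Tef and Ciart transcripts are high at another phase than Arntl and Npas2, so that the hour of collection bears on the levels of both sets. How far and in which direction each member moves depends on the hours compared.

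The DNA elements of this loop were searched for in the windows from 250 bases before to 50 bases after each annotated start (RefSeq, GRCm38.p6), on both strands. Of the members, 9 (all but Per2) had at least 1 window, 12 windows in all. The E-box CACGTG was found in 3 members (Per1, Tef and Ciart) and in 7.15% of all 32851 windows, the E-prime-box CACGTT in 1 member (Nr1d1) and in 4.68%. A D-box (TTATGTAA, TTACGTAA or TTATGCAA) was found in 2 members (Per1 and Per3) and in 1.78% of windows, and the RRE core (TAGGTCA or TGGGTCA) in 1 member (Arntl) and in 6.45%. No motif of these 4 kinds overlapped another in the sequences shown. The 250 bases before the start are printed for the 4 members with an E-box or D-box there, since these include Ciart, the member with the largest ratios to control in hepatocyte-like cells, together with the 30 bases around the Arntl RRE; capitals mark the motifs and a match is a description of the letters only.
Per1, chr11:69098699-69098948, plus strand: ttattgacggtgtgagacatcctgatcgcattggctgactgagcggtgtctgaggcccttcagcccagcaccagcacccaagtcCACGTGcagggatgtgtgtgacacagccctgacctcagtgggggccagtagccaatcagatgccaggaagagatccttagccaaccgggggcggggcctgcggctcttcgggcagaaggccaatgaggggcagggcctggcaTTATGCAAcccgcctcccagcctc
Per3, chr4:151044666-151044915, minus strand: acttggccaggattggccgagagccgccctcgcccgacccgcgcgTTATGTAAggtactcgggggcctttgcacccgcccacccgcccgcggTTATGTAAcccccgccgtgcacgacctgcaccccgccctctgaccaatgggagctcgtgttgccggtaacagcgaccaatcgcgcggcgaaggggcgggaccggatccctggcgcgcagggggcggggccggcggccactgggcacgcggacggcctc
Ciart, chr3:95882229-95882478, minus strand: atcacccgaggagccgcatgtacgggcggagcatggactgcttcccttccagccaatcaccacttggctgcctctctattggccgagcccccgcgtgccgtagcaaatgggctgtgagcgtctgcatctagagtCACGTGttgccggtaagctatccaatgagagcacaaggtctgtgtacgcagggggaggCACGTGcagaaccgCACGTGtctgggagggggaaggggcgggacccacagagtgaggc
Tef, chr15:81811164-81811413, plus strand: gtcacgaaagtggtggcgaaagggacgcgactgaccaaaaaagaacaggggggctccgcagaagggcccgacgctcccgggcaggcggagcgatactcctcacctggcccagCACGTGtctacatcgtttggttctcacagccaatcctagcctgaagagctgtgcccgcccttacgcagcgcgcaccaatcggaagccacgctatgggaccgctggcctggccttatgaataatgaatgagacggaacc
Arntl, chr7:113207530-113207559, plus strand: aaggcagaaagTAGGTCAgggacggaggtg
The E-box of Per1 began 166 bases and its D-box 24 bases before the start. Ciart held 3 E-boxes, at 116, 58 and 44 bases before the start, and the upstream stretch printed for it included 23 bases of an annotated exon. Per3 held D-boxes at 205 and 158 bases before its start and Tef an E-box at 138, while the Arntl element lay 30 bases after the start.

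By the GENCODE M21 annotation of GRCm38, the Per genes lie on different chromosomes, Per1 (ENSMUSG00000020893) at chr11:69095217-69109960, Per2 (ENSMUSG00000055866) at chr1:91415982-91459324 and Per3 (ENSMUSG00000028957) at chr4:151003652-151044665. Nr1d1 (ENSMUSG00000020889) lies at chr11:98767932-98775333 and Nr1d2 (ENSMUSG00000021775) at chr14:18204054-18239127. Dbp (ENSMUSG00000059824) lies at chr7:45705088-45710203, Tef (ENSMUSG00000022389) at chr15:81802421-81826863 and Ciart (ENSMUSG00000038550) at chr3:95878503-95882251. Arntl (ENSMUSG00000055116) lies at chr7:113207465-113314126 and Npas2 (ENSMUSG00000026077) at chr1:39193731-39363236. Exon bases shared with a gene on the other strand amounted to 263 for Nr1d1 (with Thra), 539 for Dbp (with Sphk2), 193 for Tef and 33 for Arntl, and how the counting treated strand is not given in the sources used here.

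The libraries held 11205 (control), 12982 (HFD) and 12758 (CCl4) cells after filtering. Before filtering they had 34061186 to 49613255 UMIs in all and a median of 2173 to 2939 per barcode. Clusters whose markers named them hepatocyte-like held 4962, 6421 and 7039 cells, and those of immune cells (T, NK and B lymphocytes, plasma cells, monocytes and macrophages, granulocytes, plasmacytoid dendritic cells, basophils and myeloid progenitors) 5524, 5498 and 4324. The hepatocyte-like class was held by different clusters in each library: 1 and 4 in control, 32, 33 and 31 in HFD, and 37, 39 and 31 in CCl4. Clock genes were kept out of the genes used for clustering, but Dbp still stood among the 10 leading genes of cluster 32. Hepatocyte transcripts were also found in cells that should lack them. Over 10 hepatocyte marker genes, the level in immune cells was a median of 0.286 (range 0.230 to 0.451) times that in hepatocyte-like cells in control, 0.635 (0.579 to 0.770) in HFD and 0.738 (0.591 to 0.925) in CCl4. Alb, the gene of serum albumin, stood at 4063, 17037 and 36841 counts per 1000000 UMIs (CPM) in immune cells. These ratios are used below as the level that RNA from broken hepatocytes alone would give, and are called the free RNA level.

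Hepatocyte-like cells of both treated libraries carried more Per2, Per3 and Ciart mRNA than control, those of HFD also more Dbp and Tef, and those of CCl4 also more Per1 and Arntl. A member was counted as differing where its CPM differed by at least 2-fold and it had at least 20 UMIs over both libraries. By that rule 5 of the 9 members with enough UMIs were higher and 1 was lower in HFD than in control, where 8.77% of all 12422 genes with enough UMIs were higher and 8.53% lower. In CCl4 against control, 5 of 10 were higher and 0 lower, beside 11.2% and 9.08% of all 12600 genes. The median ratio of the members was 2.19 for HFD and 1.99 for CCl4, beside 1.02 and 1.03 over all genes. Both comparisons rest on the same control library. No test across samples stands behind these counts.

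**Figure D1:**
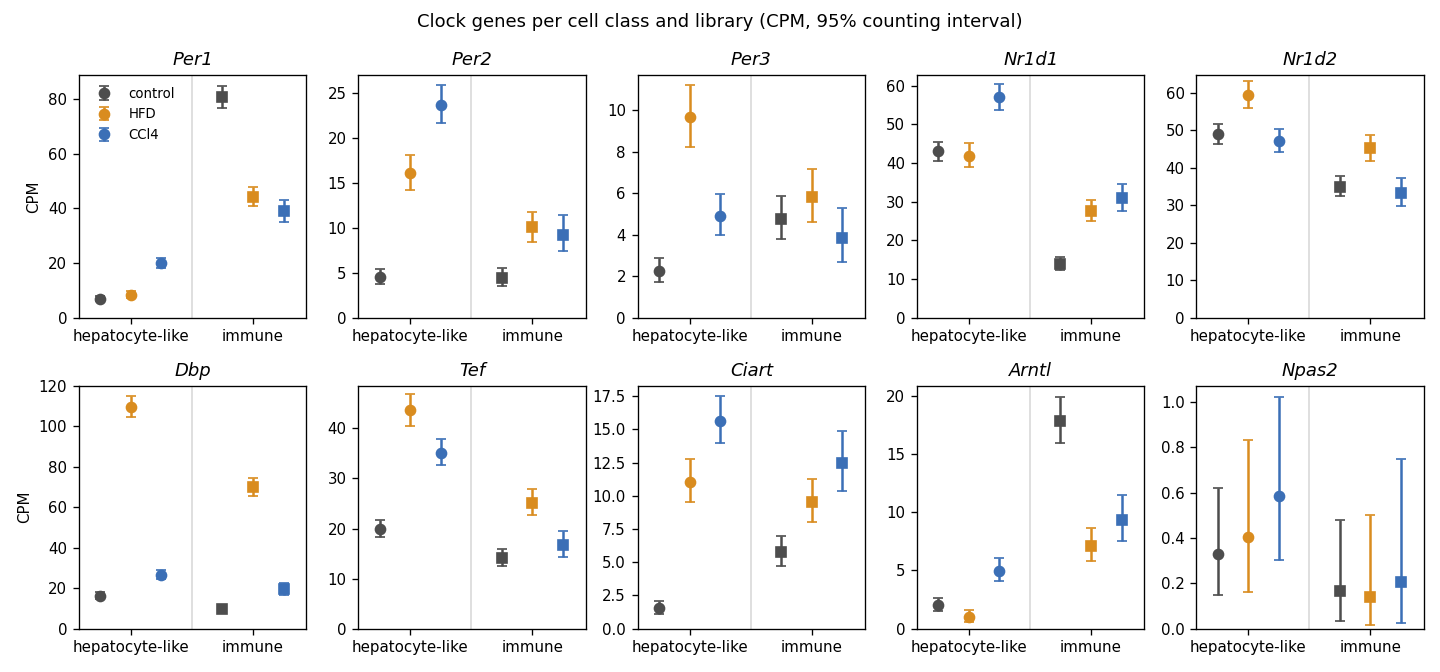
Level of each clock gene in CPM (vertical axis, from 0, its own scale per panel) in hepatocyte-like cells (circles) and immune cells (squares) of the control, HFD and CCl4 libraries; bars are exact 95% Poisson intervals for counting error. Dbp stood at 16.3, 110 and 26.6 CPM in hepatocyte-like cells and at 9.51, 70.0 and 19.5 CPM in immune cells, while Per1 was highest in the immune cells of the control library, at 80.7 CPM.

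Among the repressors of the loop, Per2 stood at 4.54 CPM in control, 16.0 CPM in HFD and 23.7 CPM in CCl4 hepatocyte-like cells (125, 277 and 485 UMIs). It was 3.53 times as high in HFD as in control (interval 2.85 to 4.39) and 5.21 times as high in CCl4 (4.27 to 6.39). Control was thus the lowest library for Per2 and CCl4 the highest, with no overlap of the intervals of the 3 levels. Per3 was at 2.25, 9.66 and 4.93 CPM, again lowest in control but highest in HFD, 4.29 times control (3.19 to 5.84). Its ratio of CCl4 to control was 2.19 (1.58 to 3.05). Per1, known to respond also to glucocorticoids and cAMP, followed another order. It was at 7.02 CPM in control and 8.45 CPM in HFD, a ratio of 1.20 whose interval of 0.965 to 1.5 included 1, and at 20.0 CPM in CCl4, 2.85 times control (2.40 to 3.40). When cells with over 10% mitochondrial UMIs were left out, the CCl4 ratio of Per1 was 1.77, that of Per3 1.70 and that of Arntl 1.75, so that all 3 came under 2-fold and 2 of 10 members remained above it.

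Ciart, whose product represses BMAL1 and CLOCK, showed the widest span of the members with enough UMIs in hepatocyte-like cells. It was at 1.53 CPM in control (42 UMIs), 11.1 CPM in HFD (191 UMIs) and 15.7 CPM in CCl4 (321 UMIs). The ratio to control was 7.24 (5.16 to 10.4) for HFD and 10.3 (7.42 to 14.5) for CCl4. The REV-ERB genes differed little by comparison. Nr1d1 was at 43.0, 41.9 and 57.0 CPM, 0.974 times control in HFD (0.887 to 1.07) and 1.33 times in CCl4 (1.22 to 1.44). Nr1d2 was at 49.1, 59.4 and 47.2 CPM, 1.21 times control in HFD (1.12 to 1.31) and 0.963 times in CCl4 (0.885 to 1.05), so neither gene reached 2-fold in either library.

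Of the PAR bZIP factors, Dbp set the HFD library apart. Dbp was at 16.3 CPM in control (448 UMIs), 110 CPM in HFD (1895 UMIs) and 26.6 CPM in CCl4 (545 UMIs). The ratio to control was 6.73 in HFD (6.07 to 7.48) but 1.63 in CCl4 (1.44 to 1.85), and CCl4 stood at 0.243 times HFD (0.220 to 0.267). Tef was at 19.9, 43.6 and 35.2 CPM, 2.19 times control in HFD (1.96 to 2.45) and 1.77 times in CCl4 (1.58 to 1.98). For Tef, CCl4 stood at 0.806 times HFD (0.727 to 0.894), short of 2-fold. HFD was the highest library for both factors and control the lowest.

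Of the activators, Arntl was scarce in hepatocyte-like cells, with 55 UMIs (2.00 CPM) in control, 17 UMIs (0.984 CPM) in HFD and 102 UMIs (4.98 CPM) in CCl4. The HFD library held 0.492 times the control level (0.268 to 0.861) and the CCl4 library 2.49 times (1.78 to 3.52). The 2 treated libraries thus lay on opposite sides of control, and CCl4 was 5.06 times HFD (3.01 to 9.02). The lower HFD value was just past 2-fold and came from few UMIs. In cells with at least 2000 UMIs the ratio was 0.519 and Arntl was no longer counted as lower. Npas2 had 9, 7 and 12 UMIs (0.327, 0.405 and 0.586 CPM), and no difference was detectable at this depth, the interval of the ratio of CCl4 to control reaching from 0.692 to 4.81.

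Between the treated libraries, 2 of 9 members were higher in CCl4 than in HFD (Per1, 2.37 times, and Arntl) and 1 was lower (Dbp), beside 7.72% and 7.16% of all genes. The members other than Arntl and Npas2 therefore did not keep 1 order of the libraries. Control was lowest for Per1, Per2, Per3, Dbp, Tef and Ciart, while HFD was highest for Per3, Nr1d2, Dbp and Tef and CCl4 for Per1, Per2, Nr1d1 and Ciart. The counting intervals of Nr1d1 overlapped between control and HFD, as did those of Nr1d2 between control and CCl4.

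The hepatocyte-like clusters fell into a kind with a median of at least 2% mitochondrial UMIs (cluster 4 in control, 31 and 33 in HFD, 31 and 37 in CCl4, with a few cells of other such clusters) and a kind with less, and the libraries held them in unequal numbers. Mitochondria-rich cells numbered 1533 of 4962 in control, 1187 of 6421 in HFD and 3051 of 7039 in CCl4. Within them Dbp was at 11.8, 100.3 and 27.3 CPM, Per2 at 6.61, 29.3 and 30.9 CPM, and Ciart at 2.13, 13.9 and 21.4 CPM. The higher levels of the treated libraries were thus also found when this kind was taken by itself, with ratios of HFD to control of 8.54 for Dbp (7.12 to 10.3), 6.69 for Per3 (4.71 to 9.64), 6.53 for Ciart (4.15 to 10.5), 4.43 for Per2 (3.37 to 5.85) and 2.49 for Tef (2.14 to 2.90). Here 5 members were higher and 0 lower in HFD, beside 9.27% and 7.02% of all genes. For CCl4, 6 were higher and 0 lower, beside 10.2% and 9.24% of all genes, the same 5 as in all hepatocyte-like cells and Dbp (2.32, 1.91 to 2.82). In CCl4 against HFD, 1 was higher (Arntl) and 2 lower (Dbp and Per3), beside 5.22% and 6.5%. Arntl at 0.706 (0.282 to 1.56) did not reach 2-fold in HFD in this kind, with 8 UMIs there.

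The mitochondria-poor cells held the hepatocyte markers at a median of 0.677, 0.953 and 0.910 times the level of the whole class in control, HFD and CCl4. Erythroid-like cells, read below, held them at 0.504, 0.900 and 0.915 times. Alb was at 7119.5, 21423 and 41454 CPM in the former and at 5781.9, 21731 and 49628 CPM in the latter. In HFD and CCl4 these markers thus hardly set the mitochondria-poor cells apart from erythroid-like cells, and how much of their signal was free RNA was not tested. In the mitochondria-poor cells the ratio of HFD to control was 5.46 for Dbp (4.81 to 6.22), 10.7 for Ciart (6.03 to 20.6), 4.41 for Per2 (3.03 to 6.58), 4.34 for Per3 (2.43 to 8.23) and 2.78 for Tef (2.33 to 3.34). The same 5 members were therefore at least 2-fold higher than control in HFD in both kinds, beside 14.1% of all genes in this one. Arntl was at 0.451 (0.183 to 1.02), beside 5.49% of all genes at least 2-fold lower. In CCl4, 3 of 9 members were higher in the mitochondria-poor cells (Per1, 3.06 times control, Per2, 5.50 times, and Ciart, 8.45 times) and 0 lower, beside 12.1% and 9% of all genes. Per3 at 1.70 (0.786 to 3.69), Arntl at 1.74 (0.933 to 3.25) and Dbp at 1.24 (1.04 to 1.48) did not reach 2-fold there, unlike in the mitochondria-rich cells. Nr1d1 was the member on which the kinds differed most in HFD, at 0.921 times control (0.804 to 1.05) in mitochondria-rich and 1.77 times (1.52 to 2.06) in mitochondria-poor cells. In control, Nr1d1 stood at 66.9 CPM in the former and 19.6 CPM in the latter.

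Whether the libraries differed alike in hepatocytes and in immune cells was asked next, since a later or earlier collection would be expected to move the clock of both. In immune cells, 2 of 9 members were at least 2-fold higher and 1 was lower in HFD than in control, beside 9.92% and 25.4% of all genes. In CCl4, 4 were higher and 1 lower, beside 9.24% and 35.4%. In CCl4 against HFD, 0 were higher and 1 was lower (Dbp, 0.279 times), beside 2.88% and 8.94%. The median ratio over all genes was itself shifted in these cells, to 0.742 in HFD and 0.633 in CCl4. The members' medians were 1.66 and 1.18.

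On the CPM scale, Dbp and Per2 were higher in the treated immune cells too. Dbp was at 9.51, 70.0 and 19.5 CPM there (174, 1012 and 188 UMIs), 7.36 times control in HFD (6.26 to 8.69) and 2.05 times in CCl4 (1.66 to 2.54). Per2 was at 4.42, 10.0 and 9.23 CPM, with ratios of 2.27 (1.71 to 3.01) and 2.09 (1.53 to 2.85). Nr1d1 was at 14.0, 27.6 and 30.9 CPM, 1.98 times control in HFD (1.69 to 2.32) and 2.21 times in CCl4 (1.86 to 2.62), and Ciart was 1.66 (1.28 to 2.16) and 2.17 (1.66 to 2.85) times control. The free RNA level, which is the hepatocyte-like CPM multiplied by the marker ratio, was then taken off. This cannot decide whether immune cells made these transcripts, since for most of them it was close to or above the measured level. The ratio of HFD to control turned to 0.0771 for Dbp and 0.0663 for Per2, and that of CCl4 to control to 0.0641 for Dbp, 0.0995 for Per2, 0.183 for Nr1d1 and 0.168 for Ciart, all from differences of close or negative levels set to at least 3 counts. In HFD, Ciart came to 0.477 and Nr1d1 to 0.628 times control. No direction is read from these ratios.

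Per1 and Arntl went the other way on the CPM scale in immune cells. Per1 was at 80.7 CPM in control, 44.2 CPM in HFD and 38.9 CPM in CCl4 (1478, 640 and 375 UMIs), 0.548 (0.499 to 0.602) and 0.482 (0.429 to 0.540) times control. Arntl was at 17.9, 7.12 and 9.34 CPM, 0.399 (0.316 to 0.499) and 0.523 (0.409 to 0.662) times control. Control was the highest library for both genes. Many other genes were lower there as well, as the shares of 25.4% and 35.4% show. Against the summed UMIs of 10 genes that immune cells share (Ptprc, Coro1a and 8 more), a scaling chosen after seeing the data, Per1 was at 15.4, 14.0 and 17.5 UMIs per 1000, so that its CCl4 ratio turned to 1.14, and Arntl at 3.40, 2.26 and 4.20. Free RNA was not taken off on this scale. On the CPM scale with it taken off, Per1 was 0.494 times control in HFD and 0.307 times in CCl4, with the shift of all genes left in. By the marker ratio it made up a larger part of both genes' levels in CCl4 than in control, so no higher expression in CCl4 is read from these values.

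**Figure D2:**
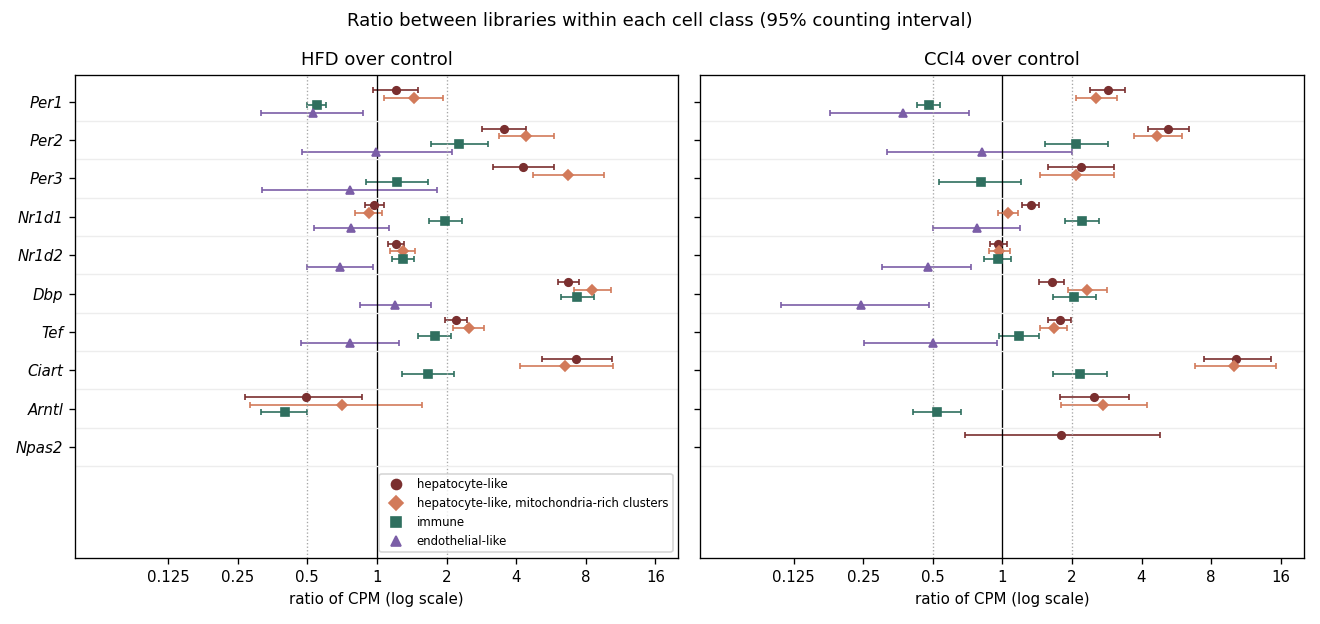
Ratio of CPM of HFD to control (left) and of CCl4 to control (right) for each clock gene with at least 20 UMIs, on a log axis, in hepatocyte-like cells, their mitochondria-rich clusters, immune cells and endothelial-like cells; bars are 95% counting intervals and dotted lines mark 2-fold. Dbp in HFD was 6.73 times control in hepatocyte-like and 7.36 times in immune cells but 1.20 times in endothelial-like cells, and Per1 in CCl4 was 2.85 times control in hepatocyte-like and 0.482 times in immune cells.

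The difference between both classes was read from the ratio of their ratios. For Dbp that value was 0.915 in HFD (0.756 to 1.11) and 0.796 in CCl4 (0.625 to 1.01), and for Nr1d2 it was 0.938 (0.819 to 1.07) and 1.01 (0.862 to 1.18), so the ratios of the classes lay within counting error of each other, with all intervals including 1. The median of this value over all genes was not 1 but 1.19 in HFD and 1.30 in CCl4. For Per1 the ratio of ratios was 2.20 in HFD (1.74 to 2.78) and 5.92 in CCl4 (4.82 to 7.27). Ciart, at 4.35 (2.86 to 6.62) and 4.73 (3.12 to 7.16), and Per3, at 3.51 (2.31 to 5.33) and 2.71 (1.65 to 4.46), also stood further above control in hepatocyte-like cells. Nr1d1 was the reverse, at 0.493 (0.411 to 0.591) and 0.600 (0.498 to 0.722). The interval lay above 1 for 5 of 9 members and below 1 for 1 in HFD, beside 38.3% and 21.3% of all 12423 genes with at least 5 UMIs in each class and library. In CCl4 it lay above 1 for 6 of 9 and below 1 for 1, beside 44.5% and 22.3%. Most genes thus differed between the classes in this way, and the members' counts are not read as particular to them.

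The immune levels were then set beside the free RNA level. For Dbp it came to 69.6 CPM in HFD and 19.6 CPM in CCl4, beside the measured 70.0 and 19.5 CPM in immune cells. In control it was 4.65 CPM, beside 9.51 CPM. For Nr1d1 in HFD it was 26.6 CPM, beside 27.6, and for Per2 10.2 CPM, beside 10.0. In CCl4 the level came out well above what was measured, at 17.5 CPM for Per2 (9.23 measured) and 42.1 CPM for Nr1d1 (30.9 measured), with Tef also below it, so that the marker ratio overstated the hepatocyte RNA of these genes there. Counting a member where the whole interval of its measured level lay above the free RNA level, all 9 members with at least 20 UMIs over both classes stood above it in control, 4 in HFD (Per1, Nr1d2, Ciart and Arntl) and 2 in CCl4 (Per1 and Arntl). Of all genes with as many UMIs, 91.4%, 81.2% and 67.4% stood above it. The immune levels of Dbp, Per2, Per3, Nr1d1 and Tef in both treated libraries did not stand above the level that hepatocyte RNA in the droplets could give, and no expression by immune cells is read from them.

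Per1 and Arntl were the members whose immune signal was furthest above it. Per1 was 11.5, 5.24 and 1.94 times as high in immune as in hepatocyte-like cells in control, HFD and CCl4, where its free RNA level was 2.00, 5.36 and 14.8 CPM. Arntl was 8.94, 7.24 and 1.88 times as high. In both, the immune cells were the higher class in all 3 libraries, while for Dbp the ratio was 0.584, 0.638 and 0.733, close to the marker ratio in HFD and CCl4.

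**Figure D3:**
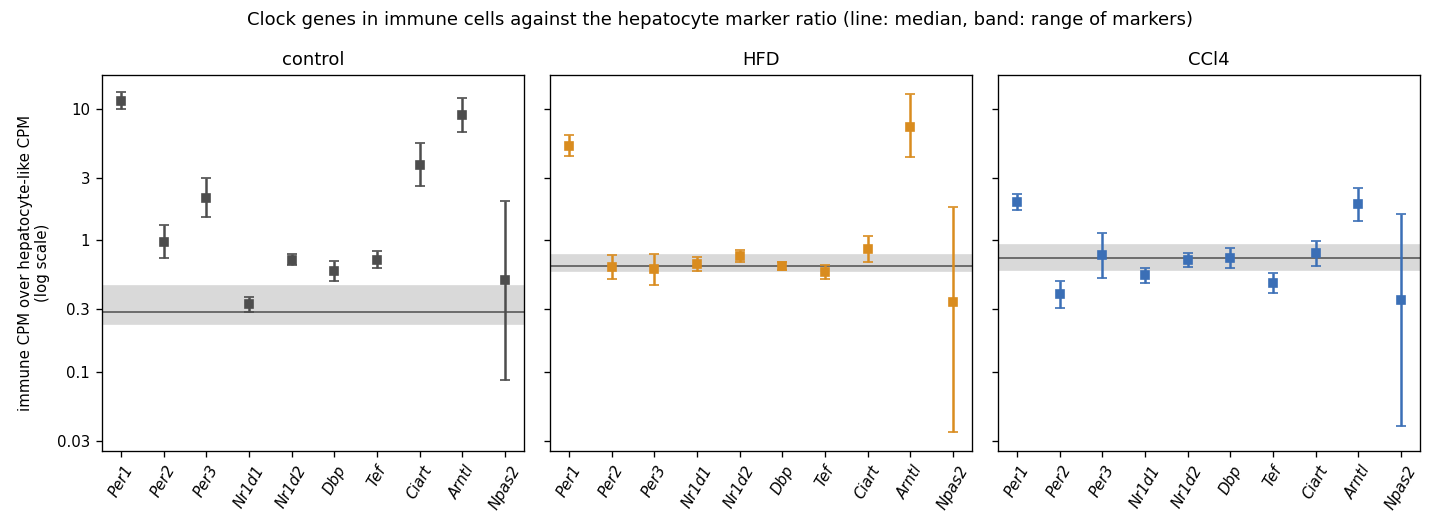
CPM in immune cells over CPM in hepatocyte-like cells for each clock gene (log axis) in each library, with 95% counting intervals; the line is the median and the band the range of the same ratio over 10 hepatocyte markers. In HFD and CCl4, Dbp lay on the line (0.638 and 0.733 beside 0.635 and 0.738), and Per1 and Arntl lay above the band in all 3 libraries.

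Within the immune cells, the CPM of Per1 was below its control value in both treated libraries in each of 5 classes. T cell-like cells held 80.8, 42.2 and 39.0 CPM, and B cell-like cells 94.1, 45.2 and 33.8 CPM. Over the T, NK and B cell-like, monocyte or macrophage-like and granulocyte-like classes the ratio ran from 0.423 to 0.727 in HFD and from 0.359 to 0.625 in CCl4, where the interval of the granulocyte-like value (0.219 to 1.04) included 1. The median ratio over all genes was itself 0.777 to 0.865 in HFD and 0.651 to 0.910 in CCl4 in these classes. Per 1000 UMIs of the pan-immune genes, Per1 in control, HFD and CCl4 was at 15.7, 14.5 and 17.9 in T cell-like, 11.9, 8.17 and 16.2 in NK cell-like and 23.8, 23.4 and 22.4 in B cell-like cells. It was at 11.3, 12.8 and 13.0 in monocyte or macrophage-like and at 14.0, 13.4 and 16.0 in granulocyte-like cells, so that on this scale CCl4 was above control in 4 of the 5 classes. These values still held free RNA, more of it in CCl4 than in control, and are not read as higher expression. Arntl was highest in control lymphocytes, at 26.1 CPM in T cell-like cells, 28.4 CPM in NK cell-like and 21.4 CPM in B cell-like cells. In HFD these were at 9.38, 3.13 and 11.3 CPM and in CCl4 at 10.6, 7.39 and 10.2 CPM. In B cell-like cells these were 0.528 and 0.477 times control, beside a median of 0.80 and 0.69 over all genes. Per 1000 pan-immune UMIs, Arntl was at 5.06, 3.21 and 4.89 in T cell-like cells and at 4.17, 0.743 and 2.87 in NK cell-like cells, but at 5.42, 5.86 and 6.78 in B cell-like cells, where the direction turned, again with free RNA left in. NK cell-like cells numbered 131 in HFD, with 1 Arntl UMI, against 1139 in control. In monocyte or macrophage-like cells Arntl was at 9.72, 5.09 and 10.3 CPM (13, 21 and 7 UMIs). Its ratio to control there was 0.524 in HFD (0.250 to 1.14) and 1.06 in CCl4 (0.360 to 2.87), so both intervals included 1. Granulocyte-like cells held 14, 3 and 1 Arntl UMIs, too few to be counted.

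Erythroid-like cells, which in adult mice have little transcription of their own as they mature, gave a check of the free RNA level, since their marker ratio was 0.504, 0.900 and 0.915. Dbp was at 22.4, 114 and 31.2 CPM in them (13, 73 and 20 UMIs), 5.08 times control in HFD (2.79 to 9.98), and Per2 at 0, 10.9 and 32.7 CPM. The 0 came from 580087 UMIs, in which the floor of 3 counts is 5.17 CPM and the exact Poisson interval reaches 6.36 CPM. These values followed the order of the libraries seen in hepatocyte-like cells, and 1, 1 and 0 of the members stood above the free RNA level, beside 16.4%, 5.06% and 3.64% of all genes. In control that member was Dbp, at 22.4 CPM (11.9 to 38.3) beside 16.3 CPM in hepatocyte-like cells, so the check did not hold for Dbp there.

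Endothelial-like and cholangiocyte-like cells differed from this. Both classes were small, with 156, 299 and 165 endothelial-like and 115, 165 and 215 cholangiocyte-like cells, and their marker ratios were 0.178, 0.591 and 0.833, and 0.203, 0.480 and 0.600. In the control library they carried far more clock transcript than hepatocyte-like cells. Dbp was at 74.9 CPM in endothelial-like cells, 4.60 times the hepatocyte-like level (3.42 to 6.08), and at 65.2 CPM in cholangiocyte-like cells, 4.00 times (2.94 to 5.36). Per3 in control cholangiocyte-like cells was at 39.6 CPM, 17.6 times the hepatocyte-like level (11 to 27.5). Nr1d1 stood at 84.2 CPM in endothelial-like and 131.7 CPM in cholangiocyte-like cells, the latter the highest class of those plotted. The low Dbp level of control hepatocyte-like cells was thus not shared by these classes of the same library.

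In HFD 0 of the 7 members with enough UMIs in endothelial-like cells and 0 of the 8 in cholangiocyte-like cells were 2-fold higher or lower, beside 10.6% and 13.4% of all genes in the former and 7.3% and 10.8% in the latter. Dbp in endothelial-like cells was at 89.7 CPM, 1.20 times control (0.842 to 1.72), and in cholangiocyte-like cells at 93.3 CPM, 1.43 times (0.964 to 2.13). Per2 was at 19.9 CPM, beside 20.1 CPM in control endothelial-like cells, and at 32.7 CPM, beside 39.6 CPM, in cholangiocyte-like cells. Per1 was at 31.0 CPM and 52.4 CPM, 0.527 (0.316 to 0.866) and 0.612 (0.388 to 0.945) times control. Between hepatocyte-like and endothelial-like cells the ratio of ratios of Dbp was 5.62 in HFD (3.94 to 8.02), and the interval lay above 1 for 6 of 8 members and below 1 for 1, beside 18.3% and 13.3% of all genes. Against cholangiocyte-like cells it also lay above 1 for 6 of 8 and below 1 for 1, beside 14.9% and 12%. Free RNA was not taken off any of these values. The marker ratio was 0.591 in HFD beside 0.178 in control in endothelial-like cells, and 0.480 beside 0.203 in cholangiocyte-like cells. The HFD levels of both classes thus held more hepatocyte RNA than those of control, and a like CPM is not read as like expression.

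In CCl4 some members stood lower than control in these classes, Per1 and Dbp in both. Of the members with enough UMIs, 3 of 6 were at least 2-fold lower in endothelial-like cells, beside 36.3% of all genes, and 4 of 8 in cholangiocyte-like cells, beside 21%. In neither class was a member 2-fold higher, beside 12.8% and 8.11% of all genes. Dbp was at 18.2 CPM in endothelial-like (10 UMIs) and 20.4 CPM in cholangiocyte-like cells (14 UMIs), 0.244 (0.111 to 0.482) and 0.313 (0.160 to 0.575) times control. Per1 was at 21.9 and 32.1 CPM, 0.372 (0.179 to 0.717) and 0.375 (0.220 to 0.615) times control. The median ratio over all genes was 0.654 in endothelial-like and 0.746 in cholangiocyte-like cells, and in CCl4 only Arntl of the members stood above the free RNA level in endothelial-like cells, beside 34.6% of all genes.

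The measured levels of Arntl and Ciart were not below control in CCl4 in these classes, on few UMIs. Ciart was at 4.01 CPM in control and 12.8 CPM in CCl4 endothelial-like cells (3 and 7 UMIs) and at 2.56 and 11.7 CPM in cholangiocyte-like cells (2 and 8 UMIs), ratios of 3.18 (0.727 to 19.1) and 4.57 (0.911 to 44.1). Arntl was at 8.02, 13.3 and 12.8 CPM in endothelial-like cells (6, 12 and 7 UMIs) and at 14.1, 21.3 and 24.8 CPM in cholangiocyte-like cells (11, 13 and 17 UMIs). The ratio to control in the latter was 1.51 in HFD (0.626 to 3.73) and 1.76 in CCl4 (0.779 to 4.17), so a difference in either direction was not detectable at this depth. Npas2 reached 7, 3 and 3 UMIs in cholangiocyte-like cells, 8.95, 4.91 and 4.38 CPM, the class with the most of it per UMI among those of at least 50 cells in every library.

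**Figure D4:**
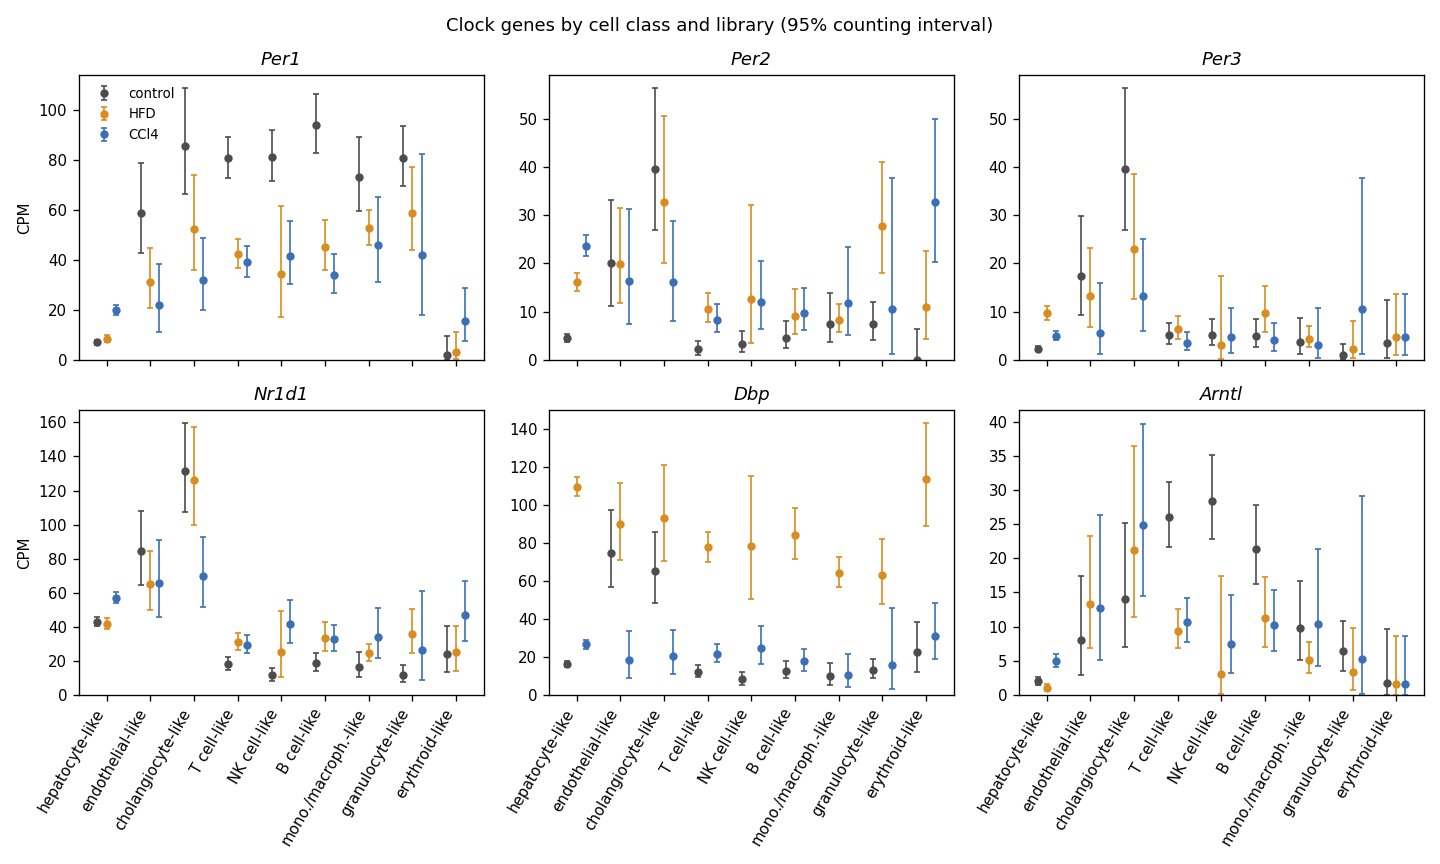
Level in CPM (vertical axis, from 0) of 6 clock genes in 9 cell classes of the control, HFD and CCl4 libraries, with exact 95% Poisson intervals for counting error. In control, Dbp was at 74.9 CPM in endothelial-like and 65.2 CPM in cholangiocyte-like cells but at 16.3 CPM in hepatocyte-like cells, and Per1 was higher in control than in HFD and CCl4 in each class other than the hepatocyte-like and erythroid-like.

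Of 14 other clock genes, 13 had enough UMIs in hepatocyte-like cells, Rorb having 0. In HFD 2 of them were at least 2-fold higher than control and 1 was lower, beside 8.77% and 8.53% of all genes. Their median ratio was 0.965. Hlf, the third PAR bZIP factor, was at 26.8 CPM in control, 74.1 CPM in HFD and 70.9 CPM in CCl4, ratios of 2.76 (2.52 to 3.03) and 2.65 (2.42 to 2.90). Nfil3, a repressor that competes with the PAR bZIP factors at D-boxes, was lower in HFD, at 40.2, 13.5 and 38.0 CPM, a ratio of 0.337 (0.291 to 0.389). Cry2, a cryptochrome named here after its values were seen, was at 5.23, 22.0 and 17.9 CPM, 4.20 (3.46 to 5.13) and 3.42 (2.81 to 4.18) times control. In CCl4 3 were higher (Hlf, Cry2 and Cry1, the last at 3.04 times control and also named after the fact) and 2 lower. The shares of all genes were 11.2% and 9.08%, and the median ratio of the list was 1.05. Bhlhe40 and Rora did not reach 2-fold, with ratios of 0.520 and 0.597 in HFD and of 0.904 and 0.695 in CCl4.

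Of 7 clock output genes, 3 were higher and 1 lower in HFD, and 4 were higher and 0 lower in CCl4. Among all genes, 8.77% were higher and 8.53% lower in HFD, and 11.2% and 9.08% in CCl4. Gys2, liver glycogen synthase, was at 19.7, 67.5 and 48.6 CPM, 3.43 (3.09 to 3.80) and 2.47 (2.22 to 2.75) times control. Alas1, the first enzyme of heme synthesis, was at 92.7, 111 and 216 CPM, 1.20 and 2.33 times control. Cdkn1a, which encodes the cell cycle inhibitor p21, was at 15.4, 2.84 and 28.4 CPM, 0.184 and 1.84 times control. Usp2, a ubiquitin protease, and Wee1, a mitotic kinase, both named after their values were seen, were at 2.18, 31.9 and 15.1 CPM and at 2.65, 18.3 and 6.05 CPM. Usp2 was 14.6 times control in HFD (11.2 to 19.4) and 6.91 times in CCl4 (5.23 to 9.27), the order of the libraries that Dbp also had.

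Glucocorticoids follow the day and can also be raised by handling or injury, so 5 of their known target genes were read beside the clock. In HFD 0 of 5 were higher and 2 lower (Klf9, 0.484 times control, and Zbtb16, 0.250 times), beside 8.77% and 8.53% of all genes. In CCl4 2 were higher and 0 lower, beside 11.2% and 9.08%. Tsc22d3, which encodes GILZ, was at 44.3, 55.8 and 226 CPM, 5.10 times control in CCl4 (4.79 to 5.44). Fkbp5, a co-chaperone of the receptor, was at 14.5, 9.08 and 47.6 CPM, 3.29 times control in CCl4 (2.92 to 3.70). Both were highest in CCl4, where Per1, Per2, Nr1d1, Ciart and Arntl were also highest in hepatocyte-like cells. The part of glucocorticoids in the levels of these members was not tested.

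Of 10 immediate-early genes, which dissociation of tissue can switch on, 0 were higher and 3 lower in HFD and 1 was higher and 0 lower in CCl4. Shares of all genes were 8.77% and 8.53% in HFD and 11.2% and 9.08% in CCl4. Dusp1 was at 92.1, 159 and 436 CPM, 4.73 times control in CCl4. Egr1 was at 921, 289 and 541 CPM, 0.314 and 0.588 times control. In immune cells 0 of the 10 were higher, with 2 lower in HFD and 4 in CCl4. There 9.92% and 9.24% of all genes were higher and 25.4% and 35.4% lower, so the lower counts are near the share of all genes. The part of the immediate-early genes in the clock gene levels was not tested.

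**Figure D5:**
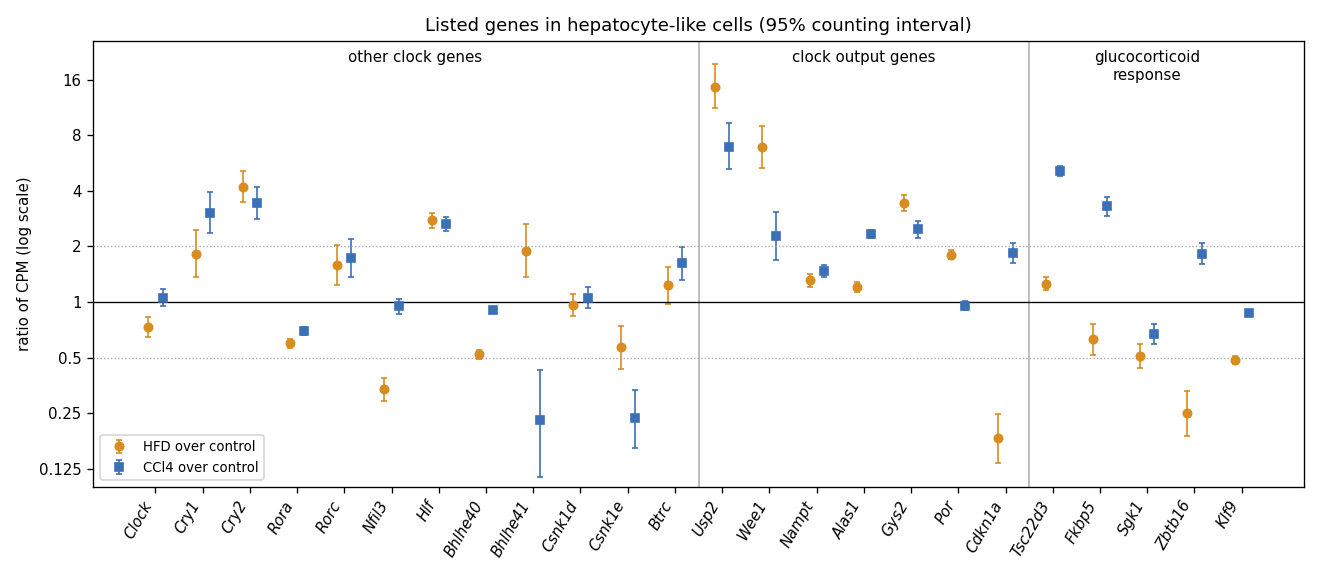
Ratio of CPM to control (log axis) in hepatocyte-like cells for other clock genes, clock output genes and glucocorticoid response genes, HFD as circles and CCl4 as squares, with 95% counting intervals and dotted lines at 2-fold. Usp2 was 14.6 and 6.91 times control, Hlf 2.76 and 2.65 times, and Tsc22d3 1.26 times in HFD and 5.10 times in CCl4.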

How the data were processed

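Single-cell 3-prime RNA libraries (Chromium) were measured in 3 groups, control, HFD and CCl4, with 1 library of 2 pooled mice each. The deposited matrices hold the authors' raw UMI counts, whose file headers give Cell Ranger 7.2.0. The study's methods name mm10 as the genome and the submitters' processing notes GRCm39, which the files do not settle, so positions are those of GENCODE M21 (GRCm38) and promoter windows those of RefSeq GRCm38.p6, found by gene. The calling of cells from barcodes is not given in the sources used here.

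Barcodes with over 30% mitochondrial UMIs were removed (38, 1 and 0). Scrublet marked only 2, 1 and 3 cells, which were removed. So few marks show that it had not worked, and other doublets were not removed. Libraries shared 36 to 52 barcodes by pair, each treated as separate cells. Counts were scaled to 10000 per cell, and cells were clustered jointly (scanpy 1.11.5 with python-igraph 0.11.9, 2000 variable genes without clock genes, 30 components, 15 neighbours, Leiden resolution 1). A cluster was named from the marker list with at least 3 genes among its 10 leading genes. Failing that, the list with the largest share of raised markers was taken, among those with most leading genes. A raised marker was found in 10% of cells and was 1.5-fold above the lower quartile of the clusters in the library holding most of the cluster. At least 3 raised markers were always needed. Only the hepatocyte-like name could be given with no marker among the leading genes. These rules were set after the clusters had been seen. Clusters that passed no list stayed unnamed (1.47%, 1.43% and 5.73% of cells), among them cluster 12, led by Car1, Hemgn, Ermap and Rhag (0.794%, 0.539% and 0.533%), and others led mostly by predicted genes.

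UMIs were summed per class and library and given as counts per 1000000 (CPM). Intervals are exact Poisson intervals for CPM, exact conditional intervals for ratios, and log-normal ones for ratios of ratios (scipy 1.17.1, pandas 2.3.3, numpy 2.4.6). Called genes differ by at least 2-fold with at least 20 UMIs over both libraries. With 1 library per group, samples could not be tested against each other, and p-values are left out. The floor behind a 0 is 3 counts. The ratio step was tested on simulated data. The named genes were the 10 members, at most the 5 genes with most UMIs of each of 4 lists, and the genes with the most similar profiles, with any others said to be named after their values were seen. Some genes that this rule names are not reported here. The members, the lists and the question were chosen with earlier results of these data known. Alternatives changed the cell filter, clustering, naming, scaling, fold and the weighting of classes.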

Additional observations from a re-analysis of the deposited data

Results flagged for a closer look

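The ratio to control or to HFD differed in direction or size between cell classes for several members. These differences are between 1 library each, the intervals cover counting error alone, and they were not tested across samples. Between hepatocyte-like and immune cells, the ratio of CCl4 to control differed 5.92-fold for Per1 (2.85 beside 0.482) and 4.76-fold for Arntl (2.49 beside 0.523). Between hepatocyte-like and endothelial-like cells, it differed 7.66-fold for Per1 (3.96 to 14.8), 6.70-fold for Dbp (1.63 beside 0.244, interval 3.38 to 13.3) and 3.52-fold for Tef (1.89 to 6.56). The ratio of HFD to control of Nr1d2 differed 1.75-fold there (1.21 beside 0.694). In CCl4 against control, this interval lay above 1 for 29.1% and below 1 for 16.8% of all genes. Against immune cells these shares were 44.5% and 22.3%. Of the members only Arntl stood above the free RNA level in CCl4 endothelial-like cells.

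Between hepatocyte-like and cholangiocyte-like cells, the ratio of CCl4 to control differed 12.9-fold for Per2 (6.29 to 26.3), with 5.21 in hepatocyte-like and 0.405 in cholangiocyte-like cells. The latter rests on 11 UMIs in CCl4. It differed 7.61-fold for Per1 (4.56 to 12.7), 6.60-fold for Per3 (2.945 to 14.8), 5.21-fold for Dbp (2.85 to 9.54) and 2.49-fold for Nr1d1 (1.75 to 3.55). Of all genes, 24.2% had such an interval above 1 and 14% below 1. For Nr1d1 the ratio of CCl4 to HFD also differed, 2.45-fold.

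Among clusters left unnamed by the marker lists, those led mostly by predicted genes held high levels of some members. Cluster 24, with 68 cells of the control library, held Nr1d1 at 339.51 CPM, Nr1d2 at 186.04 CPM, Per1 at 65.1 CPM and Per3 at 27.9 CPM, above the hepatocyte-like and immune levels of that library except for Per1, which was at 80.7 CPM in immune cells. Cluster 28, with 116 cells in HFD and 663 in CCl4, held Tef at 201.57 CPM and Per3 at 129.58 CPM in HFD. In CCl4 it held Tef at 118.71 CPM, Per1 at 73.4 CPM, Per3 at 56.1 CPM and Ciart at 51.9 CPM.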

How the results depend on the processing

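No paired analysis was possible because each group is 1 library. Counts of members below are given as higher and lower by at least 2-fold. In hepatocyte-like cells the counts were 5 and 1 (HFD over control), 5 and 0 (CCl4 over control) and 2 and 1 (CCl4 over HFD). Cells with at most 10% mitochondrial UMIs gave 2 higher in CCl4 over control, and cells with at least 2000 UMIs gave 0 lower in HFD over control. Mitochondria-rich clusters alone gave 0 lower in HFD over control and 1 higher and 2 lower in CCl4 over HFD. Each library clustered on its own, and CPM divided by the median ratio of all genes, each gave 2 lower in CCl4 over HFD. A 1.5-fold limit gave 8 higher in CCl4 over control and 2 lower in CCl4 over HFD. In immune cells the counts were 2 and 1, 4 and 1, and 0 and 1. Clusters named only by leading genes gave 0 lower in HFD over control and 2 higher in CCl4 over control, and separate clustering gave 4 higher in HFD over control and 0 lower in CCl4 over control. Equal weight of 5 immune classes gave 2 higher and 2 lower in CCl4 over control, and CPM outside mitochondrial and the 20 most abundant genes gave 0 lower there. Division by the median ratio gave 5 higher and 0 lower in HFD over control and 0 lower in CCl4 over control, and 1.5-fold gave 5 higher and 2 lower, 2 lower, and 3 lower in the 3 comparisons. With hepatocyte free RNA taken off, 0 were higher and 8 lower in HFD over control, 0 higher and 9 lower in CCl4 over control, and 3 lower in CCl4 over HFD. Some immune ratios went there from at least 2-fold higher to at least 2-fold lower. They were those of HFD over control for Per2 (0.0663) and Dbp (0.0771) and of CCl4 over control for Per2 (0.0995), Nr1d1 (0.183), Dbp (0.0641) and Ciart (0.168), all from differences of close or negative levels set to at least 3 counts. Smaller ratios also went from above to below 1. In HFD over control these were Tef (0.0245), Per3 (0.0505), Nr1d2 (0.357), Ciart (0.477) and Nr1d1 (0.628), and in CCl4 over control Tef (0.0368). These ratios and the counts of lower members with free RNA taken off thus rest in part on that floor, and no direction is read from them. Per UMI of 10 pan-immune genes, chosen after seeing the data, 7 were higher and 0 lower in HFD over control and 0 lower in CCl4 over control, where Per1 turned to 1.14. Free RNA was left in these values. Shares of all genes are not given beside the counts of these alternatives, which are not read as particular to the members. Over all settings, those above included, 131 of 162 counts stayed within 1.5 times and 530 of 628 single ratios stayed within their counting interval. The stricter naming rule left no hepatocyte-like class and so gave no value. Causes of these shifts were not tested. Depth limits Npas2 in all classes and Ciart and Arntl in the small ones.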

Other observations

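The genes whose levels moved most like those of the clock genes were sought over 33 points, 11 cell classes in 3 libraries, as the deviation of log2(CPM + 5) from the class mean. The points share libraries, depth and free RNA, so the coefficients describe likeness and carry no p. Against the mean of Per1, Per2, Per3, Nr1d1, Nr1d2, Dbp, Tef and Ciart, the most alike of 8461 genes included Dpp4 (r = 0.873), Nacc2 (0.866), Nr2f2 (0.839) and Hyal2 (0.799). Of the members of that mean, Dbp lay closest to it (0.813) and Per1 furthest (0.0834). Against the mean of Arntl and Npas2 the most alike were 1700096K18Rik (0.744), Tmem168 (0.675), Mepce (0.665), Maml2 (0.663) and Mtpap (0.662). Arntl itself was at 0.928 and Npas2 at 0.483. Each member was part of the mean it was set against, so the members' coefficients are in part likeness to themselves.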
